A study of Mus musculus with 4 samples.

Results

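The liver-enriched transcription factors Hnf4a, Foxa1, Foxa2, Foxa3, Cebpa, Cebpb, Onecut1, Onecut2 and Prox1 were followed across 4 pools of mouse liver RNA. They were taken by gene name from the deposited table, which held all 9 of them among its 13903 genes. All mice were OGT-Floxed on the C57BL/6J background and were fed a CDE diet (choline-deficient and ethionine-supplemented), which injures hepatocytes and brings out duct-like progenitor cells. AAV8-TBG-CRE, a virus that expresses Cre recombinase from the hepatocyte-specific TBG promoter, was given to the OGT-KO mice and AAV8-TBG-eGFP to the Control mice, so that cells other than hepatocytes were not targeted and the controls carried the floxed allele too. Livers were collected straight after the diet (no recovery) or 7 days later, and every condition was a single mRNA-seq library, an equal pool of RNA from 3 mice, called a pool below. With 1 library per condition no difference below has a replicate error, and no test between conditions was run. The age and sex of the mice are not given in the sources used here.

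Hepatocyte identity is held by a network of transcription factors that bind the same liver genes and each other's promoters. HNF4A is a nuclear receptor that keeps most adult hepatocyte genes on. FOXA proteins are forkhead pioneer factors that open chromatin in the embryonic gut and liver, C/EBP proteins are leucine zipper factors of metabolism and of the acute-phase response, the ONECUT proteins (ONECUT1 is HNF6) act in hepatocytes and bile duct cells, and PROX1 is a homeodomain factor of hepatoblasts, hepatocytes and lymphatic vessels. OGT, the enzyme targeted by the Cre virus, attaches N-acetylglucosamine to nuclear and cytosolic proteins, transcription factors among them.

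The promoters of the 4 genes that were at least 2-fold lower at one or both time points are shown first, because factors of the network bind each other's promoters. For 8 of the 9 factors RefSeq starts were found, in 12 windows (GRCm38.p6), and 250 bases before each start were searched on both strands for TGTTTAC (FOXA), CAAAGTC (a core of the HNF4 element), TTGCNNAA (C/EBP) and ATTGATT (ONECUT). Capitals mark the matches, none of which overlapped another. Hnf4a has a pair of promoters: the distal one is used in the embryo and in progenitor-like cells, the proximal one in adult hepatocytes. Gene counts add the transcripts of both. The distal window lies at chr2:163506607-163506856 and the proximal window at chr2:163546905-163547154 on the plus strand. Foxa1 lies at chr12:57546112-57546361 on the minus strand, Cebpa at chr7:35119043-35119292 and Onecut1 at chr9:74861671-74861920, both on the plus strand.
Hnf4a distal: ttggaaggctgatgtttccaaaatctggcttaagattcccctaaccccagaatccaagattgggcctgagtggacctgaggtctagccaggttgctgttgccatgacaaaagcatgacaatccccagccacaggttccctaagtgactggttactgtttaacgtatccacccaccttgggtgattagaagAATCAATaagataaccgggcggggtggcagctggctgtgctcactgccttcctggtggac
Hnf4a proximal: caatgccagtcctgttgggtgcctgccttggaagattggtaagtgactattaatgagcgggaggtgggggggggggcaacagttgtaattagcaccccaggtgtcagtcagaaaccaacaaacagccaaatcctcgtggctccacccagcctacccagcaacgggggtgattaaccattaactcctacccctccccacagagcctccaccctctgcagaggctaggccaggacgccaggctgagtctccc
Foxa1: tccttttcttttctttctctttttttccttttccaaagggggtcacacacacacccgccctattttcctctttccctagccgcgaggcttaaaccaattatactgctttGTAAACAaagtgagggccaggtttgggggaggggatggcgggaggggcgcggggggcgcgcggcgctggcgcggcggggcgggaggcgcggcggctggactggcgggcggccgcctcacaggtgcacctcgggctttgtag
Cebpa: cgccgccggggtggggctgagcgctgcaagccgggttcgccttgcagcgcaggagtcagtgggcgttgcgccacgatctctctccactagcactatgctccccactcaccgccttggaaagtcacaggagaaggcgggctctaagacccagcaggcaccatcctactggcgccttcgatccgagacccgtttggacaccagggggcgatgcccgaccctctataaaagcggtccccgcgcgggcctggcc
Onecut1: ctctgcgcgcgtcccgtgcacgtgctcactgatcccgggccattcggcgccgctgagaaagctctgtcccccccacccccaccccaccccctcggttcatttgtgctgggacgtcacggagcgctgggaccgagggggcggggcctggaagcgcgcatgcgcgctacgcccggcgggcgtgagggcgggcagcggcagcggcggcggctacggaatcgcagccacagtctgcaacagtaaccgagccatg

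The distal Hnf4a window held 1 ONECUT match, starting 60 bases upstream of the start. The proximal window held no match. The Foxa1 window held 1 FOXA match, 141 bases upstream. The Cebpa and Onecut1 windows shown held no match. Of 32851 promoter windows of the same length, 2.61% held the ONECUT letters, 3.17% the FOXA letters, 3.84% the HNF4 letters and 9.56% the C/EBP letters. Among the other windows, the Foxa2 starts held 1 ONECUT match, and those of Foxa3, Cebpb and Prox1 held none. A match is a description of the letters only.

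Levels are given in CPM, reads per 1000000 reads on the listed genes, with the 95% exact Poisson interval of the reads, and ratios of 2 libraries with the exact conditional interval. These intervals hold counting error alone and say nothing of the spread among mice. Whole reads could be recovered from the CPM, and the libraries held 19972699 to 22866431 of them. Differences are of log2(CPM + 1), and a gene is called at a 2-fold difference among 8963 genes whose mean reaches 10 CPM, all 9 factors included. The median compared gene was higher in the OGT-KO pool by 0.51 with no recovery and by 0.48 after 7 days. Scaling by the median ratio of genes in place of library totals moved these medians by -0.70 and -0.66, so the differences of the factors are also given less the median gene. Ogt itself had 64.7 CPM in control and 55.3 in the OGT-KO pool with no recovery, and 55.7 and 77.7 after 7 days. At the later time it was thus higher under the OGT-KO label, by 0.47, or lower, by 0.20, with median-ratio scaling. At equal totals the Ogt level goes against the label there, so OGT-KO pool below means the library labelled OGT-KO. Every direction is one between labels. The gene counts do not show which exons the Ogt reads cover.

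Between the labels, 6 of the 9 factors lay below both control libraries in both OGT-KO pools: Hnf4a, Foxa1, Foxa2, Foxa3, Cebpa and Onecut1. Among all compared genes 16.6% did so, and with median-ratio scaling 8 of the 9 factors and 51.5% of all genes did. No factor lay above both controls in both, against 70% of compared genes. With no recovery 3 of the 9 were at least 2-fold lower (Hnf4a, Foxa1 and Onecut1) against 5.69% of compared genes, and 0 were at least 2-fold higher against 24.4%. After 7 days 2 of the 9 were at least 2-fold lower (Cebpa and Onecut1) against 4.27%, and 0 higher against 22.9%. In either direction 30.1% of compared genes passed 2-fold with no recovery and 27.1% after 7 days. The median of the 9 differences was -0.89 with no recovery and -0.74 after 7 days. With median-ratio scaling 6 of the 9 were at least 2-fold lower at each time, beside 15.4% and 11.8% of all compared genes, and 0 were higher, beside 10.4% and 11.6%. Upper-quartile scaling also gave 6 of the 9 lower at each time, beside 10.9% and 8.26%. In bulk RNA, fewer hepatocytes and less of an RNA per hepatocyte cannot be told apart.

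**Figure D1:**
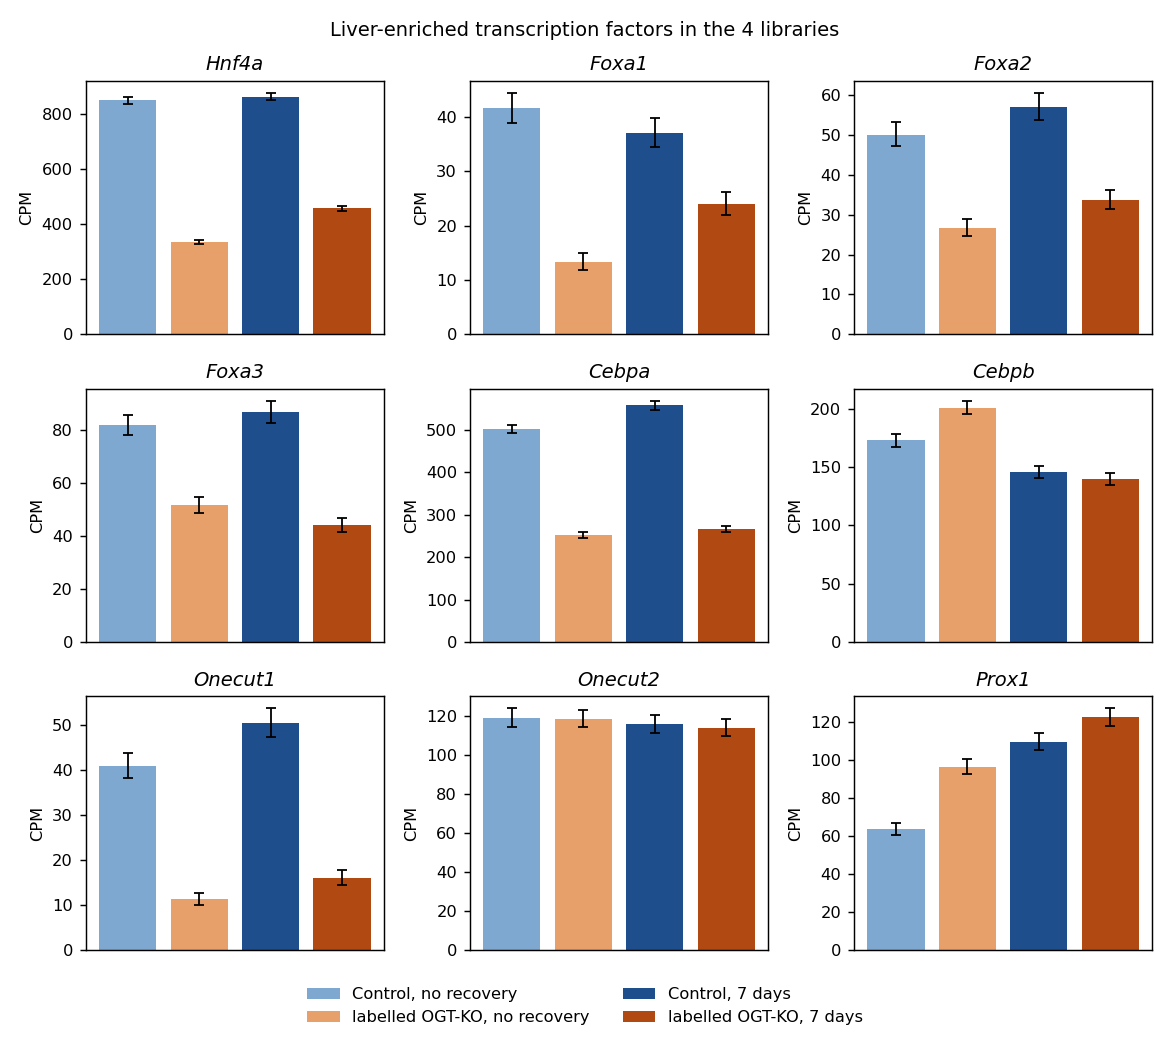
Level of each factor in CPM (y axis, from 0) in the 4 libraries, with the 95% exact Poisson interval of its reads as bars. Hnf4a, Foxa1, Foxa2, Foxa3, Cebpa and Onecut1 are lower in both OGT-KO pools than in both controls, while Onecut2 stays between 114 and 119 CPM in the 4 libraries.

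Hnf4a (ENSMUSG00000017950, chromosome 2) had 851 CPM in control with no recovery (18081 reads, 838 to 863) and 864 CPM after 7 days (851 to 877). In the OGT-KO pools it had 335 CPM with no recovery (7659 reads, 327 to 343) and 458 CPM after 7 days (449 to 467). The controls were close to each other, and both OGT-KO pools were far below them, with the recovered pool in between. The level was 2.54-fold lower with no recovery (interval 2.47 to 2.61) and 1.89-fold lower after 7 days (1.84 to 1.93). On the log2 scale the differences were -1.34 and -0.91, which is -1.85 and -1.39 less the median gene, and 3.96% and 4.72% of compared genes had a lower difference. After 7 days the value thus missed the 2-fold call at equal totals. Per 1000 CPM of summed hepatocyte markers, a quantity free of library scaling, Hnf4a was at 7.15 and 6.55 CPM in the controls and at 3.77 and 4.46 CPM in the OGT-KO pools.

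The genes whose levels over the 4 libraries were most like those of Hnf4a, by Euclidean distance of centred log2 values among 8962 genes, were Pcca (a subunit of propionyl-CoA carboxylase), Bphl, Ceacam1, Ppara (the nuclear receptor of fatty acid oxidation) and St6galnac6, at distances of 0.067 to 0.091. Ppara had 59.8 and 58.2 CPM in the controls against 23.5 and 30.2 in the OGT-KO pools. A pattern over 4 libraries is a weak measure of likeness.

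Foxa1 (ENSMUSG00000035451, chromosome 12) had 41.6 CPM in control (38.9 to 44.4) and 13.4 in the OGT-KO pool (11.9 to 15.0) with no recovery. After 7 days it had 37.1 CPM in control (34.5 to 39.9) and 24.0 under OGT-KO (22.0 to 26.1). Its label difference therefore went from 3.11-fold lower (2.73 to 3.55) to 1.54-fold lower (1.38 to 1.73), the widest gap between time points among the 9 factors, with log2 differences of -1.57 and -0.61. Foxa2 (ENSMUSG00000037025, chromosome 2), the FOXA member with an early role in endoderm, had 50.1 and 57.1 CPM in the controls with no recovery and after 7 days. It had 26.7 and 33.7 CPM in the OGT-KO pools. Its log2 differences, -0.89 and -0.74, stayed short of 2-fold at equal totals.

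Foxa3 (ENSMUSG00000040891, chromosome 7), which is expressed in the adult liver and gut, had 81.7 and 86.7 CPM in the controls. It had 51.6 CPM with no recovery and 44.0 CPM after 7 days in the OGT-KO pools, and was the FOXA gene that was lower in the recovered pool than in the unrecovered one. Its log2 differences were -0.65 and -0.96. Less the median gene, the 3 FOXA genes stood at -2.07 (Foxa1), -1.39 (Foxa2) and -1.16 (Foxa3) with no recovery, and at -1.09, -1.22 and -1.44 after 7 days. After 7 days the counting intervals of the fold lower overlapped between Foxa1 (1.38 to 1.73) and Foxa2 (1.54 to 1.86) and between Foxa2 and Foxa3 (1.82 to 2.13), so neighbours in that order were not apart.

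Cebpa (ENSMUSG00000034957, chromosome 7), a factor of metabolic genes in quiescent hepatocytes, had 502 CPM in control with no recovery (492 to 512) and 557 CPM after 7 days (547 to 568). The OGT-KO pools had 251 CPM (245 to 258) and 265 CPM (259 to 272). The level was 2.00-fold lower with no recovery (1.93 to 2.06) and 2.10-fold lower after 7 days (2.04 to 2.17), and the log2 differences of -0.995 and -1.07 lie just outside and just inside the 2-fold call. Cebpb (ENSMUSG00000056501, chromosome 2), which responds to cytokines and to regeneration, did not share this pattern. It had 173 CPM in control (168 to 179) and 201 CPM under OGT-KO (195 to 207) with no recovery, and 146 (141 to 151) and 140 (135 to 145) after 7 days. The ratio of the OGT-KO level to the control level was 1.16 (1.11 to 1.21) and then 0.957 (0.910 to 1.01), and with median-ratio scaling the log2 differences, 0.21 and -0.06, became -0.50 and -0.74. Less the median gene, Cebpa stood at -1.50 and -1.55 and Cebpb at -0.29 and -0.54.

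The ratio of Cebpa to Cebpb reads within a library does not depend on how libraries are scaled. It was 2.90 in control (2.79 to 3.01) and 1.25 in the OGT-KO pool (1.20 to 1.30) with no recovery. After 7 days it was 3.82 (3.67 to 3.98) and 1.90 (1.82 to 1.98). The ratio was therefore lower under OGT-KO by 1.21 and 1.01 on the log2 scale, and higher after recovery than without it under both labels. Over 312 bases the exons of Cebpb overlap those of Tmem189 on the other strand, and whether strand was used in counting is not given in the sources used here. Myeloid cells also express both C/EBP genes. The summed CPM of 10 Kupffer cell and macrophage markers was 290.0 in control and 1216 under OGT-KO with no recovery, and 107 and 920 after 7 days, with all 10 markers higher under OGT-KO at both times and Lyz2 and Cd5l the most abundant. Their part in the Cebpb reads was not tested.

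Onecut1 (ENSMUSG00000043013, chromosome 9) showed the largest difference of the 9 factors at both time points with a pseudocount of 1. With a pseudocount of 10 and no recovery it was at -1.26 and Hnf4a at -1.32. It had 40.9 CPM in control (38.2 to 43.7) and 11.2 under OGT-KO (9.87 to 12.7) with no recovery. After 7 days it had 50.4 CPM in control (47.4 to 53.6) and 16.0 under OGT-KO (14.4 to 17.8). The level was 3.65-fold lower (3.17 to 4.21) and 3.14-fold lower (2.78 to 3.55), with log2 differences of -1.78 and -1.59, or -2.29 and -2.07 less the median gene. Onecut1 was the single factor at least 2-fold lower at both times, as were 3.74% of compared genes. Its exons share 2171 bases with Gm20649, a noncoding gene annotated on the same strand.

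Onecut2 (ENSMUSG00000045991), its paralog, had 119 CPM in control and 118 under OGT-KO with no recovery, and 116 and 114 CPM after 7 days. The ratio of the OGT-KO level to control was 0.995 (0.942 to 1.05) and 0.982 (0.928 to 1.04), so any difference at equal totals was within 1.08-fold by counting error. Less the median gene its log2 differences were -0.52 and -0.50, and with median-ratio scaling -0.72 and -0.71. The ratio of Onecut2 to Onecut1 within a library was 2.91 (2.69 to 3.15) and 2.29 (2.13 to 2.47) in the controls. In the OGT-KO pools it was 10.6 (9.29 to 12.1) and 7.08 (6.34 to 7.93), and this shift holds whatever the scaling between libraries.

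**Figure D2:**
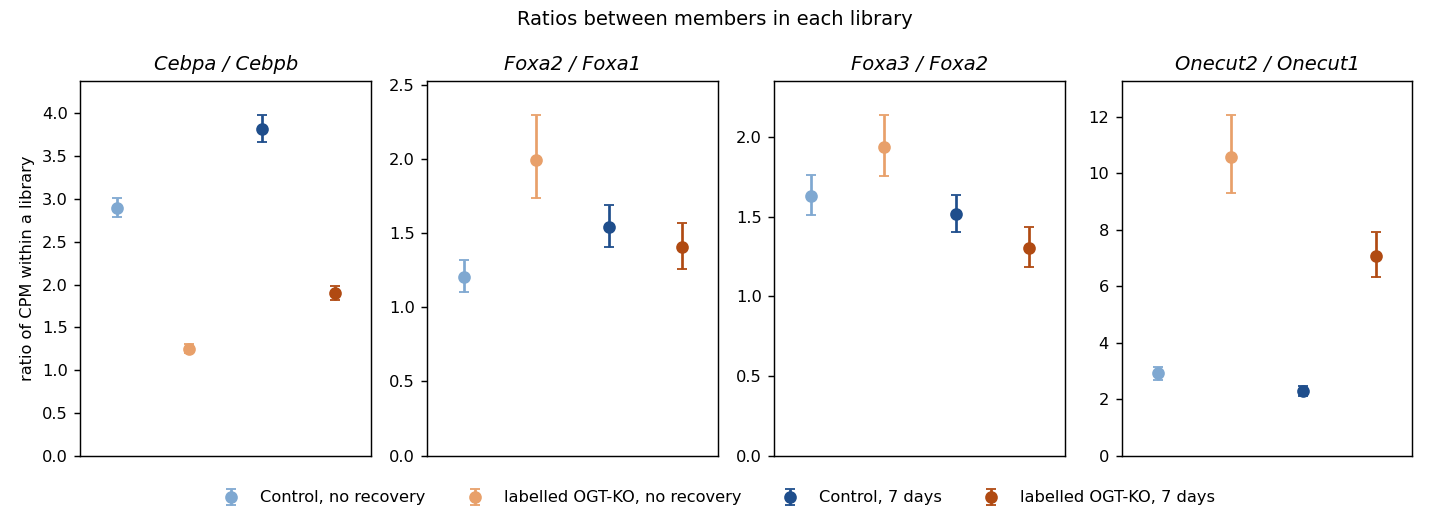
Ratio of the CPM of 2 factors within each library (y axis, linear from 0), with 95% exact intervals from the reads. Cebpa to Cebpb is lower and Onecut2 to Onecut1 higher in both OGT-KO pools than in both controls, whereas the values of Foxa2 to Foxa1 and of Foxa3 to Foxa2 under the 2 labels overlap.

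Within the FOXA family neither within-library ratio taken parted both OGT-KO pools from both controls. With no recovery alone, Foxa2 to Foxa1 was higher under OGT-KO, with intervals apart. Foxa2 to Foxa1 was 1.21 in control (1.102 to 1.32) and 1.99 under OGT-KO (1.73 to 2.29) with no recovery, and 1.54 (1.40 to 1.69) and 1.40 (1.26 to 1.57) after 7 days, where the intervals overlapped. Foxa3 to Foxa2 was 1.63 (1.51 to 1.76) and 1.94 (1.75 to 2.14) with no recovery, and 1.52 (1.41 to 1.64) and 1.31 (1.19 to 1.44) after 7 days, with overlapping intervals at both times.

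Prox1 (ENSMUSG00000010175, chromosome 1) had 63.6 CPM in control (60.2 to 67.0) and 96.3 under OGT-KO (92.4 to 100) with no recovery. After 7 days it had 110 CPM in control (105 to 114) and 123 under OGT-KO (118 to 127). Its label differences were the highest of the 9 factors, at 0.59 and 0.16, but with median-ratio scaling these became -0.12 and -0.52, and less the median gene they were 0.08 and -0.32. Lymphatic endothelium also carries Prox1, and 4 of 5 listed lymphatic markers were in the table, all 4 higher under OGT-KO at both times, with Flt4 and Lyve1 the most abundant. Their summed CPM was 33.3 in control and 93.4 under OGT-KO with no recovery, and 28.6 and 75.3 after 7 days. Flt4 alone gave 27.1 and 67.6 CPM of these sums with no recovery and 21.9 and 57.8 after 7 days, so they mostly follow that gene. Pdpn (0.706 and 1.75, then 0.551 and 3.28 CPM) and Mmrn1 (0.517 and 2.67, then 0.0501 and 1.02 CPM) did not pass the filter. Whether the sums reflect lymphatic vessels was not tested. From no recovery to 7 days in control, Prox1 was 1.73-fold higher. The part of lymphatic vessels in the Prox1 reads and in their differences was not tested.

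**Figure D3:**
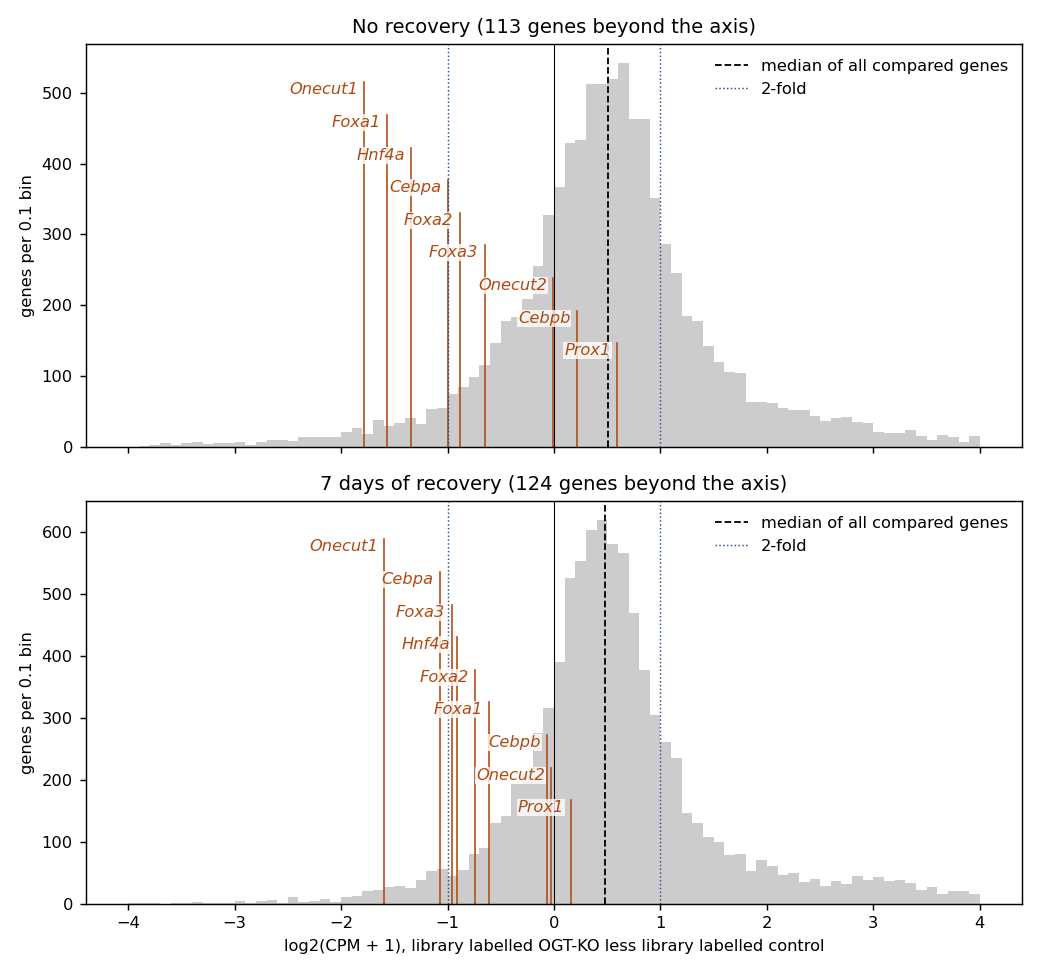
Distribution of the difference of log2(CPM + 1) between labels (x axis) over the 8963 compared genes (y axis, genes per bin) with no recovery and after 7 days, with each factor as a line, the median gene dashed and the 2-fold limits dotted. Of the 9 factors, 8 lie to the left of the median gene with no recovery and 9 after 7 days.

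Recovery was compared within each label. In the controls 0 of the 9 factors passed 2-fold, against 1.2% of compared genes, and in the OGT-KO pools 0 of the 9 passed it, against 1.47%. The largest differences after recovery were Prox1 in control, 1.73-fold higher (1.61 to 1.85), and Foxa1 under OGT-KO, 1.79-fold higher (1.56 to 2.07). Hnf4a was level in control, at 1.02-fold (0.995 to 1.04), and 1.37-fold higher under OGT-KO (1.33 to 1.41). Onecut1 was 1.23-fold higher in control and 1.43-fold higher under OGT-KO, and Foxa2 1.14-fold and 1.26-fold higher. Cebpb was 1.19-fold lower in control (1.13 to 1.25) and 1.44-fold lower under OGT-KO (1.38 to 1.51). Median-ratio scaling moved the median gene by under 0.1 in these comparisons. The label difference after 7 days less that with no recovery passed 2-fold for 0 of the 9 factors, against 2.73% of compared genes (2.09% higher and 0.647% lower), and was highest for Foxa1 (0.96) and Hnf4a (0.43) and lowest for Prox1 (-0.43). Depth was not limiting for these factors, since the fewest reads on any of them were 256 (Onecut1).

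Ranked per kilobase of merged exons (GENCODE M21), Cebpa, Hnf4a and Cebpb stood well above the other factors in every library. In control with no recovery they had 190 (Cebpa), 176 (Hnf4a) and 115 (Cebpb) CPM per kb, followed by Foxa3 at 40.1, Foxa2 at 21.2, Foxa1 at 12.5, Onecut1 at 9.94, Prox1 at 7.57 and Onecut2 at 7.33 CPM per kb. The intervals of Prox1 and Onecut2 overlapped, and those of the other neighbours did not. In the OGT-KO pool with no recovery Cebpb led at 134 CPM per kb, before Cebpa at 95.3 and Hnf4a at 69.4, and Onecut1 was last at 2.72. After 7 days Cebpa was first again under OGT-KO at 101, with Hnf4a at 94.8 and Cebpb at 92.8 not apart by their intervals. The merged exons hold 16234 bases in Onecut2 and 4113 in Onecut1. Of those of Onecut1, 2171 are shared with Gm20649 on the same strand, and how reads there were counted is not given. If such reads were dropped, the level of Onecut1 per kb is too low, so its rank in each library is uncertain.

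The rest of the liver network was read from lists. Of 21 other liver transcription factors, 20 passed the filter, and 4 were at least 2-fold lower and 1 higher with no recovery, 2 lower and 1 higher after 7 days. Of all compared genes 5.69% and 4.27% were lower and 24.4% and 22.9% higher. The list medians were -0.35 and -0.43, or -1.07 and -1.10 with median-ratio scaling. Called at both times were Hlf, a circadian PAR-domain factor, with 40.9 and 40.5 CPM in the controls against 10.5 and 19.2 under OGT-KO, and Gata6, an endoderm and mesenchyme factor, with 7.53 and 7.36 against 23.7 and 33.4.

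Factors of bile duct and progenitor cells ran the other way. Of 5 listed, 4 passed the filter and 3 were at least 2-fold higher at both times, as were 19.2% of compared genes. Sox9, the duct factor, had 8.56 and 12.9 CPM in the controls and 56.7 and 68.3 under OGT-KO. Sox4 had 3.29 and 3.91 against 78.7 and 91.9 CPM, and Hes1, a Notch target, 8.14 and 16.6 against 33.1 and 41.4 CPM. Beside them, all 8 duct markers, Sox9 among them, were higher under OGT-KO at both times (7 of 8 with median-ratio scaling), led by Spp1 and Epcam, and their summed CPM was 77.1 in control and 1195 under OGT-KO with no recovery, and 97.0 and 1525 after 7 days. Spp1 alone gave 41.0 and 977 CPM of these sums with no recovery and 52.1 and 1245 after 7 days, so the sums mostly follow that gene. The ONECUT and FOXA genes are expressed in duct cells as well, and what duct cells add to their reads was not tested.

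Among the other C/EBP genes, Ddit3 (CHOP, a stress-induced partner of C/EBP) was at 2.83 and 1.98 and was the one past 2-fold at both times. It had 12.3 and 5.31 CPM in the controls against 93.8 and 23.8 under OGT-KO. The list medians over 4 genes were 1.06 and 0.62, where the median compared gene was at 0.51 and 0.48, and with median-ratio scaling they were 0.37 and 0.0078.

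The genes known to need these factors in liver were counted next, against 5.69% of compared genes at least 2-fold lower with no recovery and 4.27% after 7 days. At least 2-fold higher were 24.4% and 22.9% of compared genes. Of 22 compared genes known to need HNF4A, 15 were at least 2-fold lower at each time and 1 was higher, with medians of -1.85 and -1.54. The lowest were Ces3b (-7.05 and -4.84), a carboxylesterase, and Dio1 (-6.08 and -3.996), the type I deiodinase. Apoa4, an apolipoprotein that is also raised in fatty liver, was higher at 3.28 and 2.48, and Apoc3 was at 0.05 and -0.16, or -0.67 and -0.84 with median-ratio scaling. Of 3 compared genes known to rise without HNF4A, all 3 were at least 2-fold higher at both times, against 19.2% of compared genes: Ccnd1 (2.53 and 3.18), Ect2 (2.77 and 3.59), both of the cell cycle, and Myc (2.55 and 1.83). Ces3a and Ces3b are close copies, so the split of reads between them is uncertain.

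Of 10 genes bound by FOXA proteins, 2 were at least 2-fold lower and 2 higher with no recovery, and 1 lower and 2 higher after 7 days. Beside them, 5.69% and 4.27% of compared genes were lower and 24.4% and 22.9% higher. The list medians were -0.54 and -0.26, or -1.26 and -0.95 with median-ratio scaling. Tdo2, tryptophan dioxygenase, was at -2.21 and -1.69, and G6pc, the last enzyme of glucose release, at -2.38 and -0.91. Afp, the fetal albumin relative, was at 7.85 and 9.49, and Igfbp1, an insulin-repressed binding protein, at 2.22 and 2.06. Of 7 genes that need C/EBP alpha, 3 were lower with no recovery and 2 after 7 days, Otc of the urea cycle among them (-1.99 and -1.39), while Alb (-0.21 and -0.08) and Tat (0.14 and 0.46, or -0.57 and -0.23 with median-ratio scaling) stayed within 2-fold. The 6 genes bound by HNF6 had medians of -0.86 and -0.50. Pfkfb1, at whose promoter HNF6 was first found, was at -0.85 and -1.20 and so at least 2-fold lower after 7 days. In that list Cyp7a1, the rate-limiting enzyme of bile acid synthesis, was at -0.44 and -0.34.

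Acute-phase genes are tied to C/EBP beta. Of 9 compared, 4 were at least 2-fold lower and 1 higher at each time, though the 4 lower genes were not all the same. Among all compared genes the shares were 5.69% and 4.27% lower, and 24.4% and 22.9% higher. The medians of the acute-phase genes were -0.81 and -0.86, or -1.53 and -1.54 with median-ratio scaling. Saa1 was at -3.86 and -4.10 and Saa2, a close copy of it, at -3.69 and -4.48. Lcn2, which is also made by stressed epithelium and neutrophils, was higher at 4.96 and 2.92, and C3 was at 0.17 and 0.35, or -0.55 and -0.33 with median-ratio scaling. The lists share genes with each other and describe these libraries only.

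**Figure D4:**
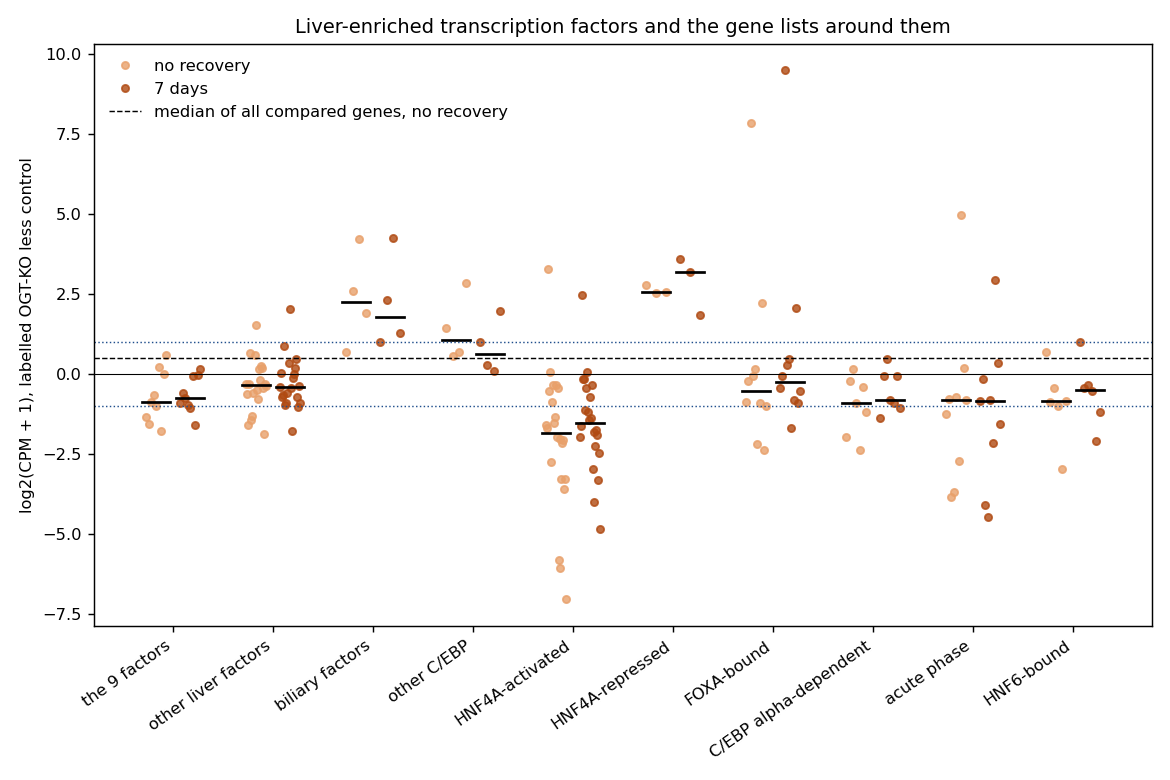
Difference of log2(CPM + 1) between labels (y axis) for the 9 factors and for each compared gene of the lists (x axis), with no recovery (light points) and after 7 days (dark points), where black bars are list medians, dotted lines 2-fold and the dashed line the median of all compared genes with no recovery. The genes that need HNF4A have medians of -1.85 and -1.54, and the biliary factors medians of 2.25 and 1.79.

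Liver identity was plain in all 4 libraries. The 14 hepatocyte markers, led by Alb and Trf, summed to 118888 CPM in control and 88932 under OGT-KO with no recovery, and to 131952 and 102573 after 7 days, 0.42 and 0.36 lower on the log2 scale. Per hepatocyte-marker CPM, Onecut1 was still lower by 1.45 and 1.29, Foxa1 by 1.22 and 0.26, Hnf4a by 0.93 and 0.55, Cebpa by 0.58 and 0.71, Foxa2 by 0.49 and 0.40 and Foxa3 by 0.24 and 0.61 on the log2 scale. On that scale Prox1 (1.02 and 0.52), Cebpb (0.63 and 0.30) and Onecut2 (0.41 and 0.34) were higher under OGT-KO. Known targets of these factors, Apoa1 and Apoa2 among them, are in the marker sum, with 4 of its 14 genes at least 2-fold lower with no recovery and 6 after 7 days. All 8 stellate cell and myofibroblast markers were higher under OGT-KO at both times, with sums of 159 and 3128 CPM with no recovery and 105 and 3963 after 7 days, and their most abundant members were Col3a1 and Col1a1. The 6 endothelial markers, led by Aqp1 and Stab2, were higher at both times (238 and 474, then 159 and 350 CPM), but 3 of the 6 only at equal totals and not with median-ratio scaling. Of 5 markers of fetal hepatocytes, 4 were in the table and higher under OGT-KO at both times, mostly Afp and Gpc3, with sums of 2.49 and 680 CPM, then 3.505 and 2336 CPM, and Igf2 and Dlk1 at 0 in both controls. Markers of neutrophils (3 of 5 in the table) summed to 2.40 and 13.95 CPM, then 1.001 and 23.4 CPM, and those of lymphocytes (3 of 6) to 1.65 and 4.81, then 1.102 and 2.88 CPM. Whether these marker sums reflect a change of cell make-up was not tested. Nor was the part of any such change in the lower factor levels, or in the higher or lower genes of the lists.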

How the data were processed

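Liver mRNA was measured in 4 libraries, 1 per condition, each from the pooled RNA of 3 mice. The authors deposited a table of CPM for 13903 genes: each column sums to 1000000, although the table is named for DESeq2 normalization. The submitters' processing notes name STAR, DESeq2 and GRCm39; versions, the counter, strand setting, annotation and filter are not given in the sources used here. All 4 columns were used. In each library 100% of values were whole multiples of the value of 1 read within 0.01, so whole reads were recovered (19972699 to 22866431 per library). A count of 3 reads is 0.131 to 0.150 CPM.

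Genes were read by the gene names of the table. Differences of log2(CPM + 1) were taken between libraries, with 2-fold as the call among 8963 genes whose mean reached 10 CPM. There is no replicate, and no p-value is printed. Intervals are exact at 95% and cover counting error. The factors, gene lists, markers and alternatives were chosen with earlier results of these data known. Named genes were all 9 factors, listed transcription factors past 2-fold at both times, the 2 highest and 2 lowest genes of the other lists, and the 5 genes nearest to Hnf4a; markers at 0, Ogt and overlapping genes were added after their values were seen. Some genes of the lists and 1 motif are not reported here. Other settings tried were pseudocounts of 0.1 and 10, a filter at 50 CPM or none, median-ratio or upper-quartile scaling, a 4-fold or 1.5-fold limit, and an exact binomial test of the reads of 2 libraries with Benjamini-Hochberg adjustment. Scripts were tested on simulated reads. Promoters, without the bases after the start, came from RefSeq (GRCm38.p6) and exon lengths from GENCODE M21 (GRCm38), a build other than that named in the notes, and were matched by symbol and identifier. Python 3.11, numpy 2.4.6, pandas 2.3.3 and scipy 1.17.1 were used.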

Additional observations from a re-analysis of the deposited data

Results flagged for a closer look

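The effects below ran in opposite directions in 2 settings, each beyond counting error, and the differences between them were not tested, since each condition has 1 library. From no recovery to 7 days, Foxa1 was at -0.16 in control and 0.80 under OGT-KO (difference 0.96). The control value only just cleared counting error (interval of the log2 ratio -0.31 to -0.02). With median-ratio scaling the Foxa1 values were -0.12 and 0.86. In the same comparison, opposite directions were also seen for genes of the lists: Dio1 at -0.42 and 1.66 (2.08), G6pc at -1.02 and 0.45 (1.47), Tdo2 at -0.28 and 0.24 (0.52), Apoa4 at 0.47 and -0.34 (-0.81) and Lcn2 at 1.78 and -0.26 (-2.04). Ogt was at -0.21 in control and 0.48 under OGT-KO (0.70), and its label difference was -0.22 with no recovery against 0.47 at 7 days (0.70). With median-ratio scaling those label differences were -0.93 and -0.20, in the same direction. Between labels, Apoc3 had 0.05 with no recovery and -0.16 at 7 days (-0.20), in opposite directions at equal totals but not with median-ratio scaling (-0.67 and -0.84).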

How the results depend on the processing

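At equal totals, 3 factors passed 2-fold downward under OGT-KO with no recovery and 2 after 7 days. With median-ratio scaling 6 and 6 were lower, with upper-quartile scaling 6 and 6, at a 1.5-fold limit 6 and 6, with a mean of at least 50 CPM 1 and 1, and at 4-fold 0 and 0. At 1.5-fold 1 factor was higher with no recovery, 1 was higher after recovery in control, 1 was higher after recovery under OGT-KO, and 1 had a label difference that was higher after 7 days; with a pseudocount of 0.1 that last count was also 1. The scalings shift all genes together. The mean of 50 leaves fewer genes compared, and it leaves out Foxa1, Onecut1 and Foxa2, whose means were 29.0, 29.6 and 41.9 CPM. Of the 79 genes of the lists, 13 were higher and 27 lower with no recovery, and 12 and 25 after 7 days. With median-ratio scaling 48 and 43 were lower, and with upper-quartile scaling 38 and 38. At 4-fold 16 and 10 were lower, and with a mean of at least 50 CPM 5 and 5 were higher. The exact binomial test of reads, which covers counting error only, passed 8010 and 7896 of 8963 genes between labels by itself, so it could not narrow the 2-fold calls at this depth. Hnf4a, Foxa1, Foxa2, Foxa3, Cebpa and Onecut1 were lower under OGT-KO at both times under the 5 scalings and pseudocounts tried, with Onecut1 between -2.46 and -1.21. Onecut2 lay between -0.72 and -0.01 with no recovery, and in 3 of the 5 settings its difference was within counting error. Cebpb with no recovery lay between -0.50 and 0.22, and Prox1 between -0.12 and 0.60 with no recovery and between -0.52 and 0.16 after 7 days. No paired analysis was possible because the labels carry no replicate numbers that could tie libraries together. A fit of the label over both times, with time as a block, was not run. With 1 library per condition none was left out.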
